A study of Macaca mulatta with 10 samples.

Results

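Chemokines are small secreted proteins that steer leukocytes through G protein-coupled receptors. Interleukins act through paired receptor chains, several of which are shared between ligands and signal through JAK kinases, while the receptors of the TNF receptor superfamily recruit adaptors that reach NF-kB and death pathways. In adipose tissue these signals come from adipocytes, stromal and endothelial cells and resident macrophages, and several of the same ligands are also made by skeletal muscle. The genes described here are the 104 genes of 28595 in the deposited tables whose symbol begins as a CC, CXC or CX3C chemokine, a CC, CXC or CX3C chemokine receptor, an interleukin, an interleukin receptor or a member of TNFRSF. They were chosen by name alone, with 1 gene for each symbol, among the 15556 genes (54.4%) for which a symbol was found. They comprise 12 CC chemokines, 6 CXC chemokines, 13 chemokine receptors, 25 interleukins, 34 interleukin receptors and 14 TNFRSF receptors. *IL1RN*, the secreted antagonist of interleukin-1, is counted among the 34 because its name begins like a receptor's. *CX3CL1*, *CX3CR1*, *CCR2*, *IL1B*, *IL18* and *TNFRSF12A* had no symbol match and were not analysed here.

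Poly(A) RNA from skeletal muscle and adipose tissue of 5 male rhesus monkeys (*Macaca mulatta*) was sequenced in strand-specific libraries, with 1 library per monkey and tissue. Monkeys rhesus_920401, rhesus_940129, rhesus_940313 and rhesus_950509 were the controls. The hyperinsulinemic group was the monkey rhesus_950807. Per the study's text it carried a nonsense mutation of *PRKD2*, a serine/threonine kinase, in the heterozygous state and was insulin resistant and obese. No treatment and no age is given in the labels. Values of the controls are printed in the order rhesus_920401, rhesus_940129, rhesus_940313 and rhesus_950509. The hyperinsulinemic group is 1 animal, so its genotype, its metabolic state and anything else particular to it cannot be told apart.

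Mapped reads ran from 30669915 to 43268985 per library, and 6220 to 8286 of the reads in control muscle but 27365 to 34953 of those in control adipose tissue fell on the 104 genes. In the hyperinsulinemic monkey these were 6910 in muscle and 48725 in adipose tissue. *PRKD2* stood at 1.14, 1.46, 1.21 and 1.79 RPKM (the read count over the transcript length and the library total) in control muscle and at 0.387 RPKM in muscle of the hyperinsulinemic monkey. In adipose tissue *PRKD2* was at 4.52, 6.12, 5.52 and 3.27 RPKM in the controls and at 3.66 RPKM in the hyperinsulinemic monkey, which is within the control range. Of 6 adipocyte markers 5 were higher and 1 was lower in control adipose tissue than in muscle, and all 6 muscle fiber markers were lower there. The muscle fiber markers summed to 243 and 179 RPKM in the adipose libraries of rhesus_920401 and rhesus_940313 and to 5.79 to 12.2 RPKM in the other 3 adipose libraries, against at least 55489 RPKM in every muscle library.

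Many of the 104 genes had few reads. With under 10 reads in every library of a tissue taken as few, 57 were so in muscle, 31 in adipose tissue and 30 in both. The 18 with 0 reads in all 10 libraries were *CCL1*, *CCL14*, *CCL20*, *CCR8*, *IL17A*, *IL19*, *IL1RAPL1*, *IL2*, *IL20*, *IL22*, *IL22RA2*, *IL24*, *IL26*, *IL3*, *IL36A*, *IL4*, *IL9* and *IL9R*. Interleukins, most of them secreted T cell or myeloid cytokines, made up 15 of the 30 genes with few reads in both tissues, whereas none of the CXC chemokines did. Few reads in muscle only were found for 27 genes, among them *CXCL1*, *CXCR2*, *CXCR3*, *CXCR5*, *CXCR6*, *IL10*, *IL13RA2*, *IL2RA* and *TNFRSF18*. Few reads in adipose tissue only were found for *TNFRSF17*, a receptor of plasma cells, which had 24 reads in muscle of the hyperinsulinemic monkey and at most 4 in any other library. A count of 0 here means not detected at this depth: the 3 reads that a count of 0 allows correspond in muscle to 0.0599 RPKM for *IL13RA2* and 0.0380 RPKM for *CXCR6*, for counting error only.

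**Figure D1:**
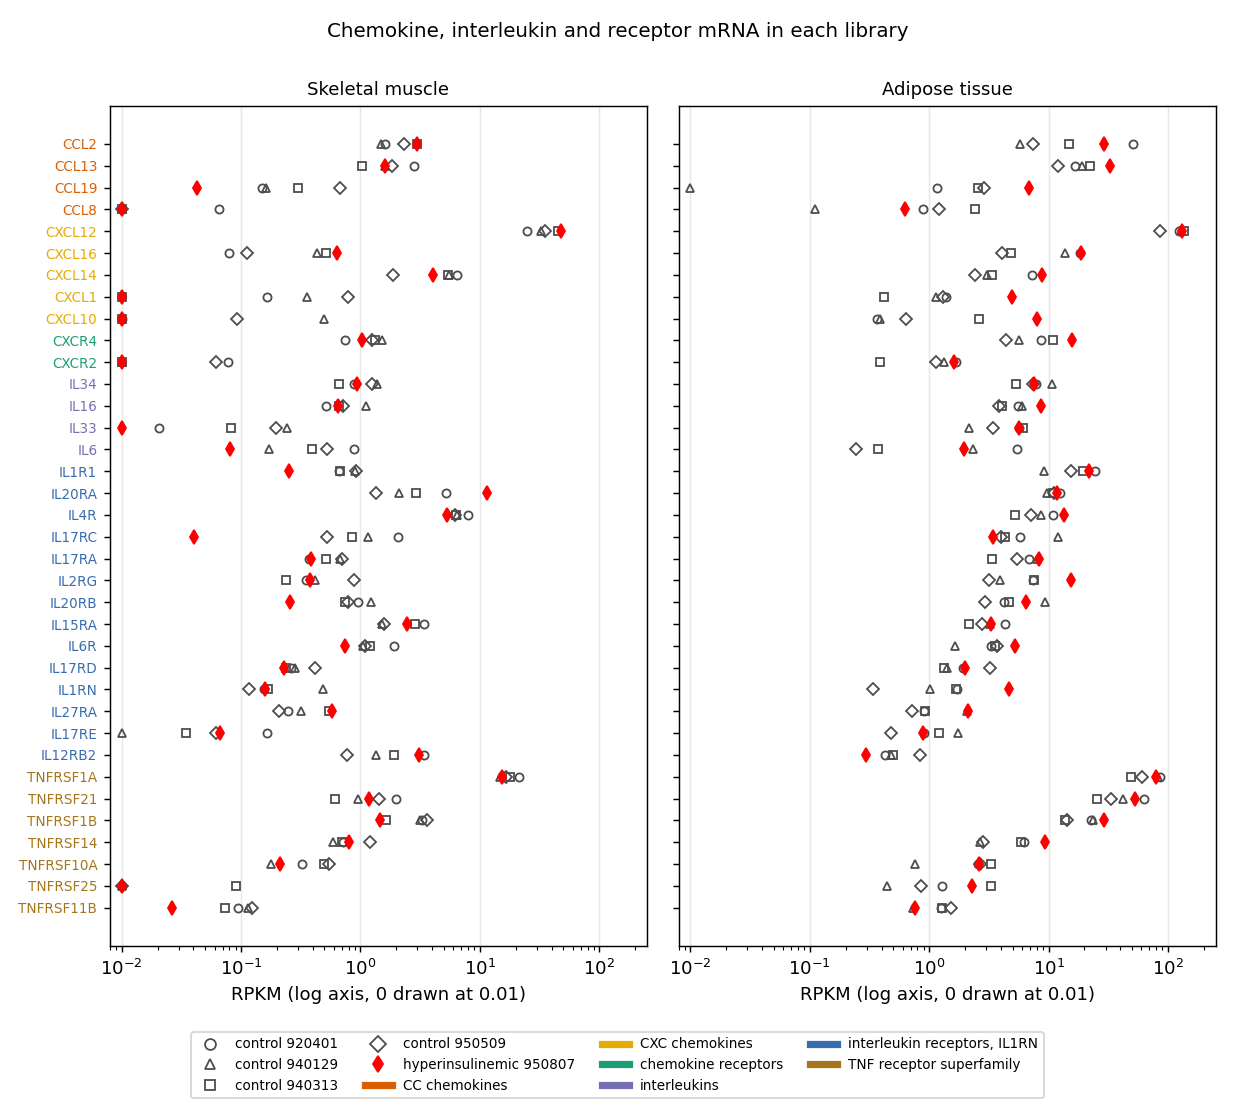
RPKM in every library (log axis, with 0 drawn at 0.01) of the members with a control mean of at least 1 RPKM in either tissue, named on the vertical axis and colored by role. Open symbols are the 4 controls and red diamonds are the hyperinsulinemic monkey. *CXCL12* stood highest in both tissues, and most members lie further to the right in adipose tissue.

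In controls, 15 of the genes averaged at least 1 RPKM in muscle and 35 in adipose tissue, and 2 and 9 averaged at least 10 RPKM. *CXCL12* (chromosome 9, bases 44549472 to 44557348 in the files' coordinates, whose build is not named), the stromal ligand of *CXCR4*, was the most abundant of all in both tissues. Its level was 24.7, 32.8, 44.7 and 35.1 RPKM in control muscle and 123, 127, 137 and 86.3 RPKM in control adipose tissue. It took 20.4% to 42.1% of the reads on the 104 genes in a library. *TNFRSF1A*, the broadly expressed receptor for TNF, came second in both tissues. It stood at 21.4, 14.7, 17.7 and 16.5 RPKM in muscle and 85.9, 82.9, 49.1 and 61.0 RPKM in adipose tissue, and in each library it lay below *CXCL12*. After these, muscle was led by *IL4R* (mean 6.75 ± 0.833 RPKM, SD, n = 4), *CXCL14* (4.82 ± 2.01), *TNFRSF1B* (2.93 ± 0.879) and *IL20RA* (2.90 ± 1.67). The last 3 of these overlapped among the 4 animals, and the range of *IL4R* overlapped that of *CXCL14*. Adipose tissue was led by *TNFRSF21* (mean 40.9 ± 16.1 RPKM, SD, n = 4), *CCL2* (19.7 ± 21.1), *TNFRSF1B* (18.5 ± 5.28), *CCL13* (17.5 ± 4.29) and *IL1R1* (17.1 ± 6.44). The last 4 of these overlapped, and the range of *TNFRSF21* overlapped that of *CCL2*. The median coefficient of variation among controls was 34.0% for the members tested in muscle against 22.6% for all genes tested, and 43.5% against 31.1% in adipose tissue. *IL20RA* in adipose tissue varied least among the controls (6.16%). *CXCL10* varied most (114%), followed by *IL6* (111%) and *CCL2* (100.4%), all in adipose tissue.

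The first comparison asked how the 2 tissues of the control monkeys differ. The files' RPKM divides by all mapped reads, and in muscle the 10 most abundant genes took 30.3% to 32.9% of gene reads in the controls, against 5.97% to 8.09% in adipose tissue. The test was the two-sided quasi-likelihood test of edgeR with Benjamini-Hochberg adjustment, on TMM factors that scale on the bulk of genes. The log2 differences below are therefore on the TMM scale, and are lower than the RPKM ratios imply: without TMM the median of all genes moved up by 1.44. A call needed an adjusted p below 0.05 and an absolute log2 difference of 1 or more. Of the 104 genes, 26 reached the mean of 1 RPKM over the 8 control libraries and were tested. Of these, 15 were called higher and 3 lower in adipose tissue, where 29.6% and 22.0% of the 11173 genes tested were. Genes low in muscle enter this set only through adipose tissue, so the count leans to adipose tissue. Among the 14 members and 7881 genes that averaged at least 1 RPKM in both tissues, 6 members (42.9%) were higher and 2 (14.3%) lower, against 16.0% and 27.6% of genes. The median log2 difference of these members was 0.85 and that of the genes -0.27. In bulk tissue, more cells of a type and more RNA per cell cannot be told apart.

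Among the secreted ligands, the membrane-bound chemokine *CXCL16*, a ligand of *CXCR6*, was higher in adipose tissue by 3.74 (SE 0.68, adjusted p = 0.000598) on the log2 scale. It stood at 0.0793, 0.429, 0.519 and 0.112 RPKM in muscle and 18.3, 13.7, 4.82 and 4.07 RPKM in adipose tissue, so every adipose library lay above every muscle library. The nuclear alarmin *IL33* was at 0.0205, 0.244, 0.0822 and 0.196 RPKM in muscle and 5.66, 2.16, 6.13 and 3.44 RPKM in adipose tissue, a log2 difference of 3.65 (SE 0.63, adjusted p = 0.000401). *IL34*, a ligand of the macrophage receptor CSF1R, and *IL16*, a ligand of CD4, were higher by 1.52 (SE 0.33, adjusted p = 0.00205) and 1.34 (SE 0.28, adjusted p = 0.00167). Both had every adipose library above every muscle library in RPKM. *CCL13*, which acts on monocytes and eosinophils, was at 2.78, 1.59, 1.03 and 1.83 RPKM in muscle and 16.6, 18.9, 22.3 and 12.1 RPKM in adipose tissue, a log2 difference of 1.89 (SE 0.38, adjusted p = 0.00117).

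*CCL2*, the main monocyte attractant, had adipose levels that were far apart among the controls. It was at 1.62, 1.48, 2.99 and 2.33 RPKM in muscle and 50.8, 5.76, 15 and 7.35 RPKM in adipose tissue. In RPKM 1 adipose library, that of rhesus_920401, was thus over 3 times each of the others. The log2 difference of 1.78 (SE 0.61, adjusted p = 0.0237) was called. It was 0.74 (adjusted p = 0.264) without rhesus_920401 and 1.30 (adjusted p = 0.0592) with the animal as a block, and over all alternatives the adjusted p ran from 0.000916 to 0.677. *CXCL12* differed by 0.41 (SE 0.24, adjusted p = 0.152) on the TMM scale and was not called. Its RPKM was nonetheless higher in every adipose library, and with library sums as the only scaling it was called higher by 1.86. *IL6*, a cytokine of muscle and stroma, was at 0.883, 0.172, 0.394 and 0.525 RPKM in muscle and 5.47, 2.31, 0.372 and 0.243 RPKM in adipose tissue. The tissues overlapped, and its difference of 0.60 (SE 0.87, adjusted p = 0.560) was not called and fell to -0.061 with the animal as a block.

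*CXCL14*, a homeostatic chemokine, was 1 of the 3 members lower in adipose tissue. Its RPKM overlapped between the tissues, 6.46, 5.54, 5.38 and 1.88 in muscle and 7.22, 3.07, 3.36 and 2.44 in adipose tissue. The TMM-scaled difference was -1.66 (SE 0.49, adjusted p = 0.0112), so relative to the bulk of genes it was lower in adipose tissue than in muscle. It was not called with library sums alone (-0.19) or without rhesus_940313 (-1.57, adjusted p = 0.0631), and over all alternatives the adjusted p ran from 0.00133 to 0.725.

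Among chemokine receptors only *CXCR4*, the receptor of *CXCL12*, was abundant enough to be tested between the tissues. It stood at 0.744, 1.51, 1.31 and 1.24 RPKM in muscle and 8.58, 5.62, 11 and 4.39 RPKM in adipose tissue, and the log2 difference was 1.26 (SE 0.37, adjusted p = 0.0119). Without rhesus_920401 it was 1.08 (adjusted p = 0.0657) and without rhesus_940313 it was 0.99 (adjusted p = 0.0788), neither of which was called, while over all alternatives the adjusted p ran from 2.56e-05 to 0.530. *CXCR2*, a receptor of neutrophil attractants, averaged 1.14 ± 0.552 RPKM (SD, n = 4) in adipose tissue and had 4, 0, 0 and 3 reads in control muscle. *CXCR3*, the receptor of *CXCL10*, had 0, 2, 5 and 4 reads in control muscle and 41, 58, 49 and 4 in control adipose tissue. At 0 reads in every control muscle library, but with at least 10 reads in an adipose library, were 11 genes, named here after their values were seen. Against a floor of 3 reads per library, the RPKM in adipose tissue was at least 16.3-fold higher for the interleukin-13 decoy receptor *IL13RA2*, at least 10.9-fold higher for *IL2RA*, at least 10.5-fold higher for *CXCR6* and at least 6.48-fold higher for *TNFRSF18*. The bound was 3.0-fold for *IL1RAPL2*, 1.62-fold for *CCL23* and 1.31-fold for *IL18RAP*, and the adipose mean of *CCL28*, *CXCL13*, *IL37* and *TNFRSF13B* was under the floor, which gives no fold. All of these bounds are RPKM ratios and would be lower on the TMM scale. Without TMM the median log2 difference of all genes moved up by 1.44, so the smaller bounds may not hold on the TMM scale. For *TNFRSF18* the 4 control adipose libraries held 11, 40, 15 and 0 reads, so that 1 of them was also at 0.

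The smallest p-value between the tissues among members was that of an interleukin receptor. *IL1R1*, the signaling receptor of interleukin-1, was at 0.659, 0.893, 0.680 and 0.919 RPKM in muscle and 24.4, 9.15, 19.5 and 15.5 RPKM in adipose tissue. Its log2 difference was 3.06 (SE 0.31, adjusted p = 7.05e-06), with every adipose library at least 9 RPKM and every muscle library under 1 RPKM. *IL17RA*, the chain shared by the interleukin-17 receptors, was at 0.368, 0.669, 0.517 and 0.698 and 6.87, 8.0, 3.40 and 5.48 RPKM in the same order of tissues, a log2 difference of 2.01 (SE 0.33, adjusted p = 0.000297). *IL2RG*, the common gamma chain, was higher by 2.16 (SE 0.51, adjusted p = 0.00310), *IL17RD* by 1.33 (SE 0.37, adjusted p = 0.00851) and *IL20RB* by 1.14 (SE 0.39, adjusted p = 0.0243). The latter pair was chosen after its values were seen. *IL17RC* (1.11) and *IL20RA* (0.53) were not called.

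*IL12RB2*, a chain of the interleukin-12 receptor, had the most negative difference among members. It was at 3.41, 1.34, 1.91 and 0.774 RPKM in muscle and 0.427, 0.478, 0.501 and 0.833 RPKM in adipose tissue, and its difference of -3.10 (SE 0.50, adjusted p = 0.000260) stayed called with library sums alone (-1.61, adjusted p = 0.0104). With limma on log2(RPKM + 1) the difference of -0.80 (adjusted p = 0.0135) was under the fold limit and was not called, and over the 9 alternatives that tested it the adjusted p ran from 3.18e-10 to 0.0135. *IL4R*, which binds interleukin-4 and serves interleukin-13, was called lower at -1.15 (SE 0.23, adjusted p = 0.00118). Its RPKM was 7.99, 6.46, 6.34 and 6.20 in muscle and 11, 8.62, 5.29 and 7.18 in adipose tissue, and the sign turned to 0.29 (adjusted p = 0.223) with library sums alone, with adjusted p over all alternatives from 2.69e-05 to 0.460. *IL15RA*, which presents interleukin-15 to other cells, was at -0.99 (SE 0.38, adjusted p = 0.0393), short of the fold limit, and likewise turned to 0.49 with library sums. *IL6R* did not differ by the test, at -0.16 (SE 0.34, adjusted p = 0.691) with a 95% interval from -0.91 to 0.58, and its sign also depended on the scaling. Reads of *IL4R*, *IL6R*, *IL17RD* and *IL2RA* may include some of a gene that overlaps them on the same strand.

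Of the TNF receptor superfamily, *TNFRSF21*, death receptor 6, was at 1.99, 0.958, 0.615 and 1.43 RPKM in muscle and 62.8, 41.9, 25.4 and 33.3 RPKM in adipose tissue, a log2 difference of 3.62 (SE 0.39, adjusted p = 1.32e-05). It stayed under 2 RPKM in each control muscle library. *TNFRSF1B*, the TNF receptor of leukocytes and endothelium, was higher by 1.26 (SE 0.28, adjusted p = 0.00233). *TNFRSF14*, the herpesvirus entry mediator, was called at 1.07 (SE 0.43, adjusted p = 0.0467), but not with the animal as a block (1.03, adjusted p = 0.0845), nor without rhesus_920401 (0.89), rhesus_940129 (1.05) or rhesus_940313 (0.77). Over all alternatives its adjusted p ran from 0.000138 to 0.813. *TNFRSF1A* reached 0.59 (SE 0.22, adjusted p = 0.0354), under the fold limit, though its RPKM was higher in every adipose library and library sums alone gave a called difference of 2.04.

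**Figure D2:**
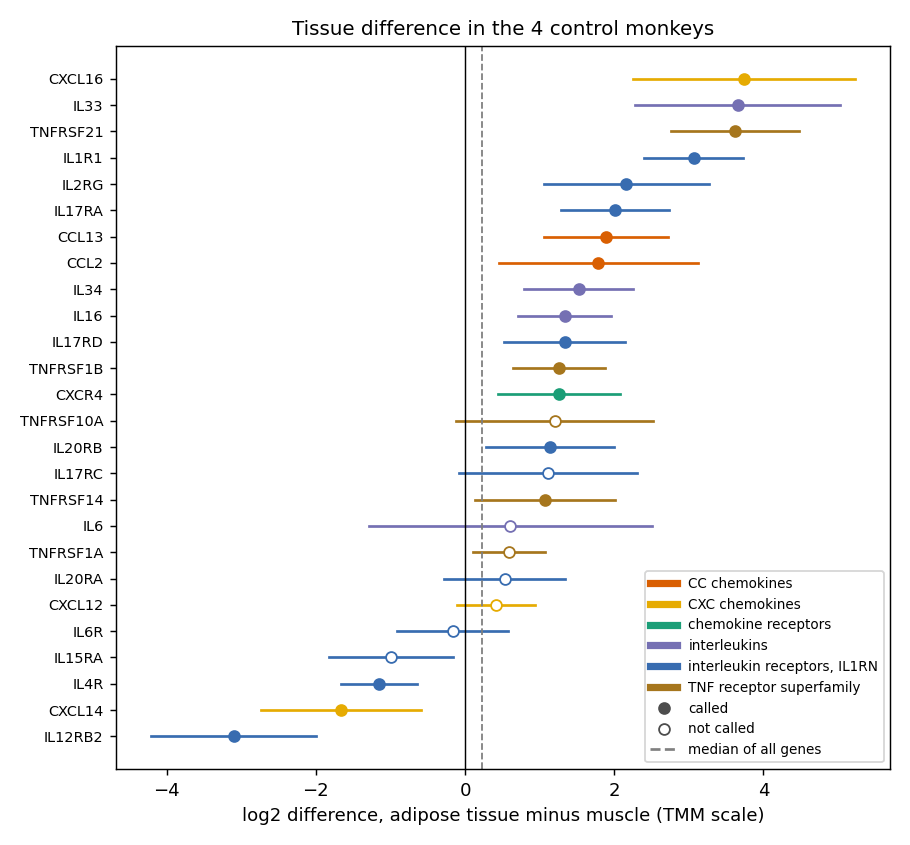
Log2 difference between adipose tissue and muscle of the 4 controls (TMM scale) for the 26 members tested, with 95% intervals, colored by role. Filled points were called and the dashed line is the median of all genes tested, 0.23, with *CXCL16*, *IL33*, *TNFRSF21* and *IL1R1* above 3 and *IL12RB2* below -3.

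With library sums alone 21 members were called higher and 1 lower, and all 15 members called higher on the TMM scale were among the 21. The share of called genes that were higher moved from 57.4% to 90.3% over all genes and from 83.3% to 95.5% over members. The median of the members minus that of all genes was 1.0 with TMM and 1.01 with library sums. Macrophage markers summed to 12.0 to 31.1 RPKM in control muscle and 129 to 399 RPKM in control adipose tissue, with 7 of 7 higher in adipose tissue, and T and NK cell markers to 2.14 to 5.86 and 24.0 to 52.0 RPKM, with 2 of 3 tested higher. Of the endothelial markers 3 of 6 and of the fibroblast markers 3 of 4 were higher in adipose tissue, where 29.6% of all genes tested were. The part of these cells in the tissue differences of the members was not tested.

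Genes around the receptors were given by lists. Of all genes tested, 29.6% were called higher and 22.0% lower in adipose tissue, and the counts below are to be read beside these shares. Of 11 matched subunits in the list of gp130 and related cytokine receptors 9 were tested, 6 were higher and 0 lower in adipose tissue, with a median log2 difference of 2.17 against 0.23 for all genes. They were *IL6ST* (3.04), which encodes the gp130 chain through which *IL6R* signals, *IFNAR1* (2.54), *OSMR* (2.27), *CNTFR* (2.23), *IFNAR2* (2.17) and *CSF1R* (1.68). Of 10 tested JAK, STAT and SOCS genes *JAK2* (1.67) and *STAT6* (1.64), the STAT of interleukin-4, were higher and *STAT5B* (-1.41) was lower. Of 23 tested NF-kB and adaptor genes 3 were higher and 7 lower. The higher ones were *TRAF5* (2.88), *RIPK1* (2.79) and *IRAK2* (1.17), and the lower ones included *IRAK1* (-2.16), a kinase downstream of *IL1R1*, and *NFKB2* (-1.56). Among 3 tested TNF family ligands, *TNFSF12* (2.48) and *TNFSF10* (1.74) were higher.

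The second comparison asked how the hyperinsulinemic monkey differs from the controls in each tissue. With 1 animal the test assumes that it varies like the controls, and p-values measure only the spread between these animals. Each tissue was tested over the genes that reached a mean of 1 RPKM in its 5 libraries, and a count was also made, with no test, of genes whose TMM-scaled level in the hyperinsulinemic monkey lay outside the range of all 4 controls.

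In muscle, 0 of the 15 members tested were called, and 0% of 8306 genes were. By edgeR 754 genes, 2 of them members, had an unadjusted p under 0.05, and DESeq2 called 88 genes and limma 1, none of them members. Above all 4 controls lay 2 members (13.3%) and below them 4 (26.7%), against 24.3% and 23.8% of all genes, so the shares were near or under the background. The median log2 difference of the members was -0.35 and that of all genes -0.028.

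Among the 15 members tested in muscle, *IL20RA* (chromosome 4, bases 126804910 to 126820735) had the largest displacement. It encodes a chain of the receptor for interleukins 19, 20 and 24. It was at 5.22, 2.12, 2.91 and 1.36 RPKM in the controls, from 384, 144, 240 and 94 reads, and at 11.5 RPKM, from 744 reads, in the hyperinsulinemic monkey. In RPKM the hyperinsulinemic monkey thus lay above every control by a factor of over 2. On the TMM scale it was at 34.4 CPM (counts brought to a common library size). The controls were at 17.6, 6.98, 9.38 and 4.89 CPM, so the factor over rhesus_920401 was under 2. The log2 difference of *IL20RA* was 1.82 (SE 0.54, unadjusted p = 0.00732, adjusted p = 0.482). The adjusted p ran from 0.137 to 0.584 over the alternatives. *IL19*, *IL20* and *IL24*, the ligands of that receptor, had 0 reads in every library, and *IL20RB*, its other chain, was at 0.948, 1.22, 0.744 and 0.792 RPKM in the controls and 0.259 RPKM in the hyperinsulinemic monkey. *TNFRSF19*, also known as TROY, was at 0.491, 1.12, 1.0 and 0.447 RPKM in the controls and 2.25 RPKM in the hyperinsulinemic monkey, a log2 difference of 1.40 (SE 0.65, unadjusted p = 0.0582, adjusted p = 0.572). It passed the limit of 1 RPKM only through the hyperinsulinemic monkey. *IL17RC* did not reach that limit over the 5 libraries and was not tested in muscle. It was at 2.06, 1.15, 0.855 and 0.527 RPKM in the controls, from 58, 30, 27 and 14 reads. In the hyperinsulinemic monkey it had 1 read (0.0403 RPKM), below all controls.

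The 4 tested members below all controls in muscle were receptors, as were the 2 above. Most of the 15 tested were receptors: 4 of TNFRSF, 5 interleukin receptors and 1 chemokine receptor. *TNFRSF1B* was at 3.29, 3.16, 1.65 and 3.63 RPKM in the controls and 1.46 RPKM in the hyperinsulinemic monkey, a log2 difference of -1.19 (SE 0.51, unadjusted p = 0.0430, adjusted p = 0.535). *IL6R* was at 1.91, 1.05, 1.20 and 1.09 RPKM and 0.736 RPKM, and *IL4R* at 7.99, 6.46, 6.34 and 6.20 RPKM and 5.29 RPKM, with log2 differences of -1.01 and -0.52. *TNFRSF1A* was below the controls on the TMM scale only, since its RPKM of 15.2 exceeded the 14.7 of control rhesus_940129. The limit on the mean of the 5 libraries leaves out genes that only a low level in the hyperinsulinemic monkey brings under it. With a limit on the control mean, an alternative chosen after seeing the data, 5 of 15 members (33.3%) lay below and 1 (6.67%) above. The shares of all genes were 24.7% and 23.1%. *IL1R1*, not tested in muscle, was at 0.659, 0.893, 0.680 and 0.919 RPKM in the controls and 0.254 RPKM in the hyperinsulinemic monkey. Control rhesus_920401 was the highest of the controls in 9 of the 15 members tested, and without it the median of the members was -0.091. *CXCL12*, at 24.7, 32.8, 44.7 and 35.1 RPKM in the controls and 47.5 RPKM in the hyperinsulinemic monkey, differed by 0.30 with a 95% interval from -0.40 to 0.99. *CCL2* and *CXCR4* lay within the control range, and *IL15*, a cytokine known from muscle, had 0, 22, 46 and 8 reads in the controls and 26 in the hyperinsulinemic monkey. Macrophage markers summed to 14.8 RPKM in muscle of the hyperinsulinemic monkey, inside the controls' 12.0 to 31.1 RPKM, and 2 of 5 tested were below all controls. The smooth muscle and pericyte markers summed to 42.8 RPKM against 62.3 to 101 RPKM in the controls, with 3 of 6 below. Their part in the lower receptor levels was not tested.

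In adipose tissue, 0 of the 39 members tested were called, and 0% of 11981 genes were. By edgeR 286 genes, 4 of them members, had an unadjusted p under 0.05, and DESeq2 called 11 genes, none of them members, and limma 0. The direction of the members nevertheless leaned one way: 17 (43.6%) lay above all 4 controls, against 15.7% of all genes, and 2 (5.13%) below, against 14.3%. The median log2 difference was 0.42 for members and -0.062 for all genes. Of the 39, 4 averaged under 1 RPKM in the controls and passed only through the hyperinsulinemic monkey. These were *IL1R2*, *IL2RB*, *IL13RA2* and *TNFRSF19*, and all 4 were among the 17, so that count leans upward. With a limit on the control mean, an alternative chosen after seeing the data, 13 of 35 members (37.1%) lay above and 2 (5.71%) below. The shares of all genes were then 14.9% and 14.7%. Genes are not independent of each other, and no test was made of these shares.

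**Figure D3:**
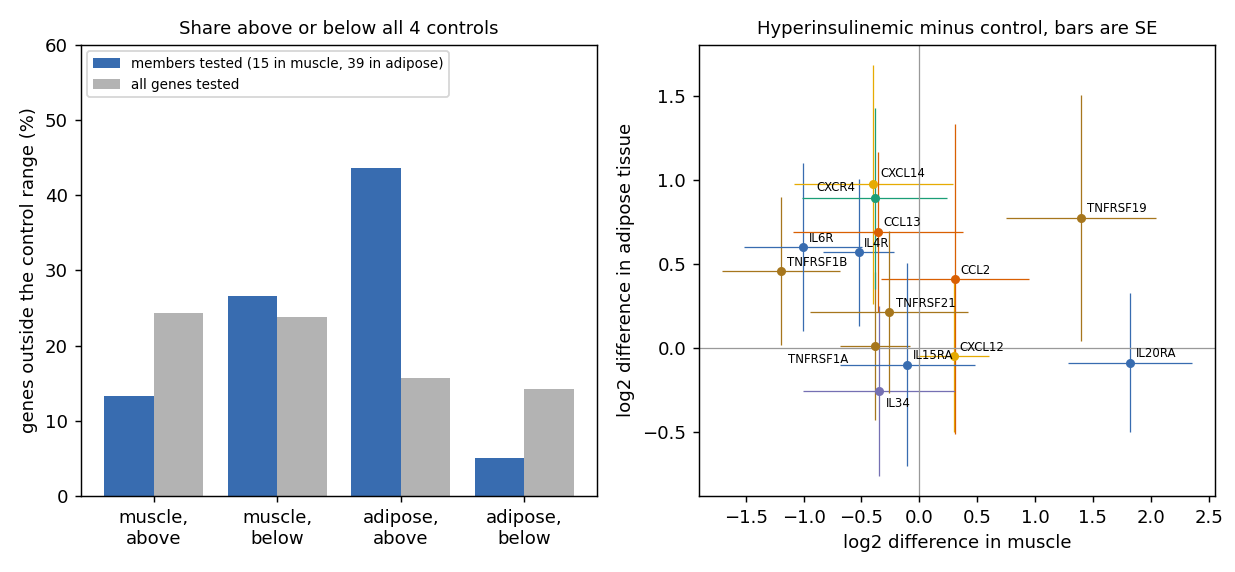
Left, percent of the members tested and of all genes tested whose TMM-scaled level in the hyperinsulinemic monkey lay above or below all 4 controls, by tissue. Right, log2 difference of the hyperinsulinemic monkey from the controls in muscle (horizontal) and adipose tissue (vertical) for the members tested in both, with SE as bars. In adipose tissue 43.6% of members lay above against 15.7% of genes. Some of these members passed the filter only through the hyperinsulinemic monkey. With a limit on the control mean the shares were 37.1% and 14.9%.

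The ligands above the control range in adipose tissue were led by *CXCL10* (chromosome 5, bases 53563731 to 53566133), an interferon-induced ligand of *CXCR3*. It was at 0.365, 0.387, 2.64 and 0.646 RPKM in the controls, from 14, 14, 120 and 30 reads, and at 7.96 RPKM, from 392 reads, in the hyperinsulinemic monkey. Control rhesus_940313 stood apart from the other controls, and the difference was 2.72 (SE 0.96, unadjusted p = 0.0175, adjusted p = 0.9999). *CXCL1*, a neutrophil attractant that acts on *CXCR2*, was at 1.38, 1.15, 0.416 and 1.30 RPKM in the controls and 4.99 RPKM in the hyperinsulinemic monkey, with 14, 11, 5 and 16 reads against 65. Its log2 difference was 2.05 (SE 0.89, unadjusted p = 0.0438, adjusted p = 0.9999). *CCL19*, a ligand of the lymphoid homing receptor CCR7, was at 1.16, 0, 2.57 and 2.88 RPKM in the controls and 6.85 RPKM in the hyperinsulinemic monkey, and the control at 0 left a wide SE of 1.27 around its log2 difference of 1.84.

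The more abundant ligands lay closer to the controls. *CCL13* was at 16.6, 18.9, 22.3 and 12.1 RPKM in the controls and 32.6 RPKM in the hyperinsulinemic monkey, *CXCL14* at 7.22, 3.07, 3.36 and 2.44 RPKM and 8.89 RPKM, and *IL16* at 5.58, 6.03, 4.07 and 3.87 RPKM and 8.67 RPKM. Their log2 differences were 0.69, 0.97 and 0.63, none of them called. *CCL2*, at 28.9 RPKM in the hyperinsulinemic monkey, lay within the wide control range, as did *IL6* at 1.96 RPKM. The difference of *CXCL12* was -0.048 with a 95% interval from -1.05 to 0.96, and that of *IL33* was 0.19 with an interval from -1.13 to 1.51.

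*IL1RN*, the antagonist of interleukin-1, was at 1.72, 1.02, 1.67 and 0.336 RPKM in the controls and 4.71 RPKM in the hyperinsulinemic monkey, a log2 difference of 1.79 (SE 0.78, unadjusted p = 0.0446, adjusted p = 0.9999). The decoy receptor *IL1R2*, chosen after its values were seen, also lay above them, at 0.945, 0.846, 1.12 and 0.243 RPKM in the controls and 2.60 RPKM in the hyperinsulinemic monkey. The signaling receptor *IL1R1* lay within the control range, at 21.8 RPKM, with a log2 difference of 0.16 and a 95% interval from -0.96 to 1.28.

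Among the receptors of leukocytes, *IL2RG* was at 7.36, 3.93, 7.50 and 3.20 RPKM in the controls and 15.4 RPKM in the hyperinsulinemic monkey. In RPKM the hyperinsulinemic monkey thus had over 2 times the level of each control. On the TMM scale the controls were at 18.3, 11.1, 21.7 and 8.43 CPM and the hyperinsulinemic monkey at 36.3 CPM. On that scale *IL2RG* was under 2 times its level in rhesus_920401 and in rhesus_940313. Its log2 difference was 1.29 (SE 0.54, unadjusted p = 0.0387, adjusted p = 0.9999). *CXCR4* was at 8.58, 5.62, 11 and 4.39 RPKM in the controls and 15.8 RPKM in the hyperinsulinemic monkey, and *TNFRSF14* at 6.19, 2.67, 5.92 and 2.86 RPKM and 9.31 RPKM. Both differed by 0.89 on the log2 scale and neither was called. *IL4R*, *IL6R*, *TNFRSF1B* and *TNFRSF19* also lay above all controls, with log2 differences from the control mean of 0.57, 0.60, 0.46 and 0.77, none of them called. *IL2RB* and *IL13RA2*, at 1.80 and 1.97 RPKM in the hyperinsulinemic monkey, completed the 17.

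Below all controls were *IL17RC*, a partner chain of *IL17RA*, and *TNFRSF11B*, the decoy receptor for RANKL. *IL17RC* was at 5.73, 12.1, 4.34 and 4.0 RPKM in the controls and 3.41 RPKM in the hyperinsulinemic monkey. *TNFRSF11B* was at 1.27, 0.738, 1.29 and 1.54 RPKM and 0.769 RPKM, so on the RPKM scale control rhesus_940129 was lower still. *TNFRSF1A* (0.0092), *TNFRSF21* (0.21) and *IL20RA* (-0.087) lay within the control range. For *IL20RA* the 95% interval ran from -1.01 to 0.83 in adipose tissue and from 0.62 to 3.02 in muscle, and these overlap.

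With at least 10 reads in an adipose library as the limit in place of 1 RPKM, 73 members were compared, of which 27 (37%) lay above all controls and 4 (5.48%) below, against 17.6% and 14.3% of the 15678 genes with as many reads. Among those under 1 RPKM on average, *IL10*, an anti-inflammatory cytokine, had 29, 37, 14 and 12 reads in the controls and 128 in the hyperinsulinemic monkey, or 0.548, 0.741, 0.223 and 0.187 RPKM and 1.88 RPKM. *IL15*, which supports NK and memory T cells, had 11, 15, 39 and 32 reads and 99 reads. *CCL26* and *CCR10* were also above, with 39 and 22 reads. In muscle 47 members had that many reads, with 5 (10.6%) above and 13 (27.7%) below, against 22.3% and 21.9% of 13768 genes. A gene can reach this limit through the hyperinsulinemic monkey alone, and it then tends to lie above. In adipose tissue this held for *CCL23* (at most 8 reads in a control, 18 in the hyperinsulinemic monkey) and *CCL28* (8 and 10). In muscle it held for *TNFRSF17* (4 and 24).

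**Figure D4:**
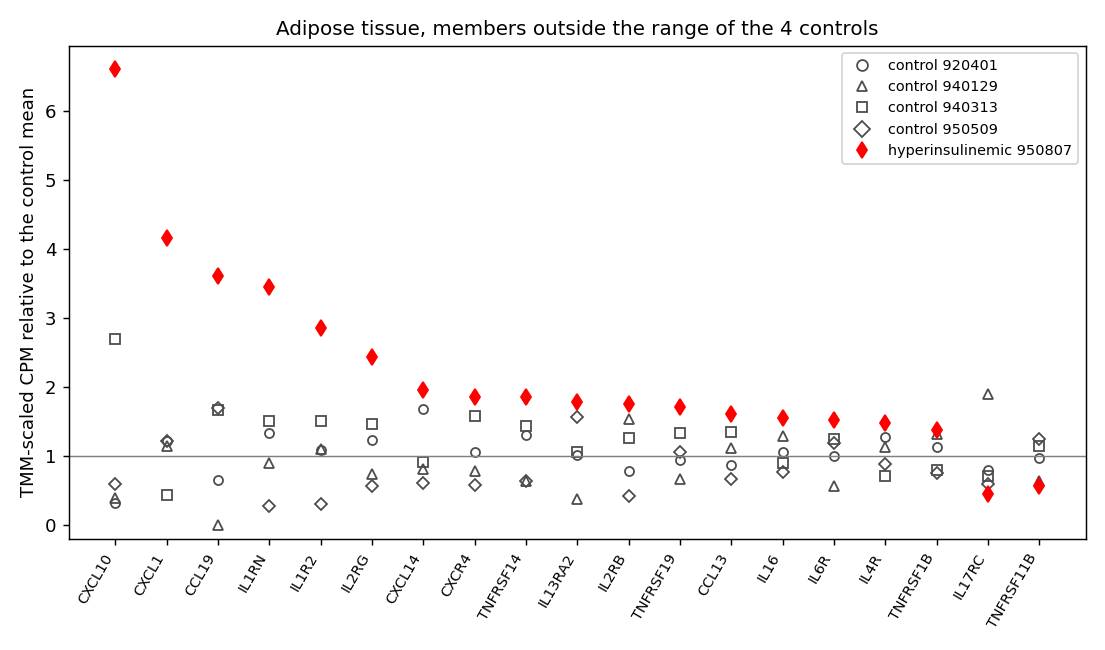
TMM-scaled CPM (counts brought to a common library size) in adipose tissue, divided by the mean of the controls, for the 17 members above and the 2 below all 4 controls. Open symbols are controls and red diamonds are the hyperinsulinemic monkey. *CXCL10* stands highest. Several members, among them *TNFRSF1B*, *IL13RA2*, *IL2RB*, *IL4R*, *CXCL14* and *CXCR4*, lie just above the highest control.

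Markers of leukocytes lay high in the same library, in which 15.7% of all genes tested lay above all 4 controls and 14.3% below. Macrophage markers summed to 399, 220, 217 and 129 RPKM in control adipose tissue and 492 RPKM in the hyperinsulinemic monkey, with 6 of 7 above all controls. T and NK cell markers summed to 52.0, 39.8, 34.9 and 24.0 RPKM in the controls and 78.5 RPKM in the hyperinsulinemic monkey, with 4 of 5 tested above. Neutrophil markers summed to 8.52 to 54.1 RPKM and 56.2 RPKM, with 2 of 3 tested above. B and plasma cell markers were near 0 in all adipose libraries (0.0319 to 0.342 RPKM in the controls, 0.236 RPKM in the hyperinsulinemic monkey, 1 of 3 at 0 reads). Fibroblast markers summed to 1100 to 1750 RPKM in the controls and 2220 RPKM in the hyperinsulinemic monkey, with 3 of 4 above, and endothelial markers to 130 to 200 RPKM and 232 RPKM, with 1 of 6 above. Of the adipocyte markers 0 of 6 were above and 2 below. The part of these cells in the higher levels of the members was not tested. Without the adipose libraries of rhesus_920401 and rhesus_940313, which held the most muscle fiber RNA, 24 of the 39 members (61.5%) lay above the 2 remaining controls and 3 (7.69%) below, against 25.3% and 24.3% of all genes, an alternative chosen after seeing the data.

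The partners of the receptors showed no called change. Of 23 tested NF-kB and adaptor genes in adipose tissue 8 were above all controls and 2 below, and the median log2 difference was 0.11. The shares of all genes are the 15.7% above and 14.3% below given before, and 24.3% and 23.8% in muscle. Examples are *TRAF2*, at 2.26 to 3.42 RPKM in the controls and 4.71 RPKM in the hyperinsulinemic monkey, and *IRAK2*, at 6.09 to 8.42 RPKM in the controls and 3.67 RPKM in the hyperinsulinemic monkey. Of 10 tested gp130 and related receptors 4 were above, *CSF1R* at 90.4 RPKM against 30.5 to 68.5 RPKM among them, and 1 below. Of 10 tested JAK, STAT and SOCS genes 3 were above and 1 below, and of 6 tested TNF family ligands 0 were above and 1 below. In muscle *TNFAIP3*, an inhibitor of NF-kB induced by TNF, was at 1.13 to 2.71 RPKM in the controls and 6.06 RPKM in the hyperinsulinemic monkey and *MYD88*, the adaptor of the interleukin-1 receptor family, at 1.39 to 2.22 RPKM and 0.611 RPKM. In muscle 4 of 19 tested NF-kB and adaptor genes were above all controls and 4 below, which is near the shares of all genes. Of 9 tested JAK, STAT and SOCS genes there, 2 were above and 4 below. The 2 tested atypical chemokine receptors of adipose tissue lay within the control range, while the 1 tested in muscle, *ACKR1*, was below it at 6.24 RPKM against 6.74 to 13.5 RPKM.

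The third comparison asked whether the difference of the hyperinsulinemic monkey from the controls differs between the tissues. Of the 14 members tested in both tissues 0 were called for the interaction, as were 0% of 7938 genes. By edgeR 434 genes, 3 of them members, had an unadjusted p under 0.05, and DESeq2 called 16 genes, none of them members, and limma 0. The median difference of effects was 0.49 for members and 0.011 for all genes. *TNFRSF1B* was below the controls in muscle and above them in adipose tissue, with a difference of effects of 1.71 (SE 0.61, unadjusted p = 0.0163, adjusted p = 0.902). *IL4R* had the same pattern, with a difference of 1.15 (SE 0.49, unadjusted p = 0.0357, adjusted p = 0.902), as did *IL6R*, with 1.63 (SE 0.76, unadjusted p = 0.0536, adjusted p = 0.902). *IL20RA* had a difference of the opposite sign, -1.86 (SE 0.79), with a level above the controls in muscle and within their range in adipose tissue. *TNFRSF1B*, *IL4R*, *IL6R* and *IL20RA* encode receptors or receptor chains, as did most of the 14 members tested. Among those 14 were 4 TNFRSF receptors, 4 interleukin receptors and 1 chemokine receptor. None of the differences between the tissues was called.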

How the data were processed

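Strand-specific poly(A) libraries of 5 male monkeys were used, 4 controls and 1 hyperinsulinemic, each monkey giving 1 muscle and 1 adipose library. Groups and animals follow the titles and sample group in the labels. The deposited files give, per the file headers, the authors' read counts and their RPKM per Ensembl macaque gene. The authors made the RPKM by dividing counts by transcript length and by mapped reads, so a few very abundant muscle genes lower the RPKM of all others there. Reads were mapped with TopHat (1.2.0 in the submitters' processing notes, another release in the study's methods) and only uniquely mapped reads were kept, which can undercount closely related chemokine genes. What counted the reads, and on which genome build and annotation, is not given in the sources used here. Of gene counts from 1 to 20, 59.7% were even, and whether the mates of a read pair were counted apart is not given in the sources used here.

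Symbols came from an Ensembl name table (15556 of 28595 genes), and gene starts are printed as counted from 1. The members and gene lists were chosen with earlier results of these data known. Counts were tested with edgeR 4.0.16 (quasi-likelihood, TMM) in R 4.3.3 over all genes whose mean reached 1 RPKM over the libraries compared (in each tissue for the interaction), with Benjamini-Hochberg adjustment over all genes tested. The threshold was 0.05, and between tissues also an absolute log2 difference of 1. The scripts were tested on simulated data. Alternatives were DESeq2 1.42.0, limma 3.58.1 on log2(RPKM + 1), median-of-ratios scaling, library sums only, no filter, a limit of 5 RPKM, leaving out each control, leaving out the 2 adipose libraries with most muscle fiber RNA (between tissues, both libraries of these animals), and the animal as a block. Animals pair the tissues by their titles, and the correlation across genes of an animal's deviations in the 2 tissues was 0.13, -0.17, 0.082 and 0.16 in the 4 controls.

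Named by rule were, in each role, the 4 members of highest mean RPKM, up to 4 with the smallest p between tissues, up to 2 with the smallest p in each other comparison, and 21 preset names, 7 of which had no match. Together these are 34 members. *CCL23*, *CCL28*, *CXCL13*, *CXCR6*, *IL13RA2*, *IL17RC*, *IL17RD*, *IL18RAP*, *IL1R2*, *IL1RAPL2*, *IL20RB*, *IL2RA*, *IL2RB*, *IL37*, *TNFRSF13B*, *TNFRSF17*, *TNFRSF18* and the examples from the gene lists were named after their values were seen.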

Additional observations from a re-analysis of the deposited data

Results flagged for a closer look

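In 64 groups of 4 control libraries of the 34 members named by rule, 4 had 1 library apart from the other 3 by Dixon's 95% criterion, and chance gives about 1 in 20. *CCR10* was low in adipose tissue of rhesus_950509, at 0.0466 RPKM against 0.269 to 0.310 RPKM, from 2 reads against 9 to 13. *CXCL10* was high in adipose tissue of rhesus_940313, at 2.64 RPKM against 0.365 to 0.646 RPKM. *IL1RN* was high in muscle of rhesus_940129, at 0.489 RPKM against 0.116 to 0.167 RPKM, and *IL4R* was high in muscle of rhesus_920401, at 7.99 RPKM against 6.20 to 6.46 RPKM.

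For *IL4R*, *IL6R* and *TNFRSF1B*, the hyperinsulinemic monkey lay below all 4 controls in muscle and above all 4 in adipose tissue. Subtracting the log2 effect measured in muscle from the one in adipose tissue gave 1.15, 1.63 and 1.71. The difference was tested by the interaction term of edgeR's quasi-likelihood test, which gave an adjusted p of 0.902 for each.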

How the results depend on the processing

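Of 595 comparisons of a named member with an alternative, 549 kept the direction and the side of the threshold, 25 lost the call, 10 gained it and 11 turned sign. For the tests in muscle, in adipose tissue and of the interaction, these took in only the members named for a smallest p in that test. All of the lost and gained calls were between the tissues, where the scaling matters most, and the counts of 0 members called in the other comparisons held under every alternative run. The replicate block (the animal as a term) gave 13 members higher and 3 lower in adipose tissue, lost *CCL2* and *TNFRSF14* and changed no other call. Members called higher in adipose tissue, 15 as reported, were 27 with no filter, 6 at a limit of 5 RPKM and 6 without both libraries of rhesus_920401 and rhesus_940313. Members called lower, 3 as reported, were 0 with limma, 1 with library sums only, 0 at 5 RPKM and 0 without both animals' libraries. The latter settings test fewer genes or use fewer samples by construction, and for the others the cause was not tested.

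The median of the members between tissues, 1.23 as reported, was 1.76 with limma, 2.68 with library sums only, 1.54 with no filter and 1.85 at 5 RPKM. In muscle it was -0.070 with limma, -0.67 with no filter and -0.38 to -0.091 when 1 control was left out, with -0.091 without rhesus_920401. For the interaction it was 0.49 as reported, 1.01 with no filter and 0.90 without the adipose libraries of rhesus_920401 and rhesus_940313.

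Members above all controls in muscle, 2 as reported, were 10 with no filter, 1 with a limit on the control mean (added after seeing the data) and 2 to 4 with 1 control left out, the 4 without rhesus_940313. Those below in muscle, 4 as reported, were 13 with no filter and 5 with the limit on the control mean. In adipose tissue 28 were above and 4 below with no filter, 1 was below on the deposited RPKM, and 2 to 5 were below with 1 control left out, the 5 without rhesus_940129.

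The sign turned between tissues for *IL15RA* (0.32 with limma, 0.49 with library sums), *IL4R* (0.19 and 0.29), *IL6R* (0.79 and 1.32, and -0.34 to 0.11 with 1 control left out, positive without rhesus_920401) and *IL6* (-0.061 with the replicate block). For the interaction it turned for *CCL2* (-0.21 to 1.19 with 1 control left out, negative without rhesus_940313 or rhesus_950509) and *IL34* (-0.063 without the adipose libraries of rhesus_920401 and rhesus_940313). Leaving out those adipose libraries was not run for muscle, which uses neither. In muscle the 57 members with few reads cannot be compared at this depth, and no member could be compared across hyperinsulinemic animals, since there was 1.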
